A study of Mus musculus with 16 samples.

Results

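Gene expression was compared between mouse hepatocytes grown with cancer cells that lack Phgdh, in the presence of a CXCR2 inhibitor (KO + CXCR2i, n = 4), and the same kind of hepatocytes grown alone (n = 3). These 7 libraries, out of 16 in the series, were chosen by their labels, and no gene was selected beyond a filter on low values. Besides them, 3 groups of 3 libraries each were used for side-by-side values, namely hepatocytes with wild-type cancer cells and the inhibitor (WT + CXCR2i), with knockout cells without it (KO), and with wild-type cells without it (WT). The labels give hepatocytes as the source of all libraries and class them as a cell line; the knockout refers to the cancer cells. The series' design text instead describes the sequenced material as the cancer cells, named HY19636, which is not what the labels say, and the groups here follow the labels. The labels are silent on vehicle, dose, time in culture and batch, and on whether replicates were separate cultures. The p-values therefore measure only the spread between these libraries. KO + CXCR2i and hepatocytes alone differ both by the cancer cells and by the inhibitor, and the parts of each cannot be told apart in this contrast, as no group had the inhibitor without cancer cells.

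Phgdh encodes 3-phosphoglycerate dehydrogenase, the entry enzyme of serine synthesis from glucose, followed by Psat1 and Psph. CXCR2 is a chemokine receptor best known on neutrophils, and its ligands, Cxcl1, Cxcl2 and Cxcl5 among them, are made by many epithelial and stromal cells under inflammatory signals. Hepatocytes secrete most plasma proteins and hold the enzymes of urea, bile acid, drug and glucose metabolism, and these functions depend on a network of transcription factors that weakens when the cells are cultured or proliferate. Type I interferons act through a complex that includes Stat2 and Irf9 and binds a promoter element of antiviral genes.

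Whole fragments recovered from the deposited FPKM values (fragments per kilobase of gene, scaled to a common library size) numbered 16.1 to 21.3 M in KO + CXCR2i and 16.4 to 21.0 M in hepatocytes alone. A fragment in a gene of 1 kb was worth 0.0457 to 0.0602 FPKM in KO + CXCR2i and 0.0489 to 0.0627 FPKM in hepatocytes alone, so values near these rest on very few fragments. Mitochondrial transcripts took 1.88 to 2.09% of fragments in KO + CXCR2i and 3.41 to 3.79% in hepatocytes alone, and the 50 most abundant genes took at most 12.1% in KO + CXCR2i and at least 14.1% in hepatocytes alone. In a principal component analysis of all 16 libraries the first 2 components held 59.1% and 27.3% of the variance, and both separated KO + CXCR2i from hepatocytes alone without overlap. Replicate 4 of KO + CXCR2i stood at 7.45 on the third component (2.99% of the variance), apart from the -6.02 to -4.86 of the other 3. Other groups were split on this component too. WT + CXCR2i replicates 1, 2 and 3 stood at 7.35, -6.33 and 7.71, and those of WT at 20.08, -5.53 and -6.81. What the component reflects was not tested. No count given below for the comparison with hepatocytes alone moved by more than 1.5 times without replicate 4 of KO + CXCR2i.

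The labelled cell type was checked against marker genes. Of 12 hepatocyte markers 11 were measured above the filter described below, and their summed level was 3526 to 3707 FPKM in KO + CXCR2i and 2209 to 2213 FPKM in hepatocytes alone, carried mostly by the keratins Krt8 and Krt18. Alb, Ttr, Apob and Hnf4a, an identity factor, were present in all 7 libraries, with 43.3 FPKM of Apob in 1 KO + CXCR2i library as the lowest value. Cyp2e1, a P450 of mature liver, was at most 0.112 FPKM in KO + CXCR2i and 0.159 FPKM in hepatocytes alone. The markers Cps1 and Apoa1 were low in hepatocytes alone, at 0.116 to 0.293 and 2.43 to 4.41 FPKM. In KO + CXCR2i they had 14.6 to 18.3 and 86.2 to 101 FPKM. Of 15 markers of pancreatic cancer epithelium 8 were tested, and all 8 were higher in KO + CXCR2i, with a summed level of 698.9 to 735.8 FPKM in KO + CXCR2i, against 371.8 to 384.9 FPKM in hepatocytes alone. These were Gata6, Krt7, Tspan8, Lgals4, Msln, Krt19, Krt20 and Ly6a, at log2 fold changes of 0.50 to 1.84, and 2 of them had a mean below 1 FPKM in hepatocytes alone. Msln and Krt19 averaged 200.7 and 96.89 FPKM in hepatocytes alone. Without the inhibitor the 15 markers summed to 234.7 to 251.8 FPKM in KO and 247.5 to 275.7 FPKM in WT. In KO 6 of the 8 tested were lower than in hepatocytes alone and 2 higher. Tff1 and Agr2 were at 0 in all 7 libraries and Epcam reached at most 0.0295 FPKM in KO + CXCR2i and 0.0719 FPKM in hepatocytes alone. The part of the change in the pancreatic markers in the results below was not tested. Cholangiocyte markers summed to 773.3 to 818.4 FPKM in KO + CXCR2i and 1482 to 1503 FPKM in hepatocytes alone, mainly through Spp1. Of the 7 tested, however, 4 were higher in KO + CXCR2i and 3 lower, at a median log2 fold change of 0.51. Krt7, Krt19 and Tspan8 stand in both this list and the pancreatic one. Kupffer cell markers summed to 106.6 to 109.5 FPKM in KO + CXCR2i and 114 to 117 FPKM in hepatocytes alone, almost all of it Cd14, with Adgre1, Clec4f and the C1q genes at 0. Of these 12 markers 2 were tested, and they went opposite ways. Cd14 was lower (log2 fold change -0.15) and Cd68 higher (1.67). Cd68 averaged 4.28 FPKM in KO + CXCR2i and 0.690 FPKM in hepatocytes alone, and passed the filter through other groups. Sums were at most 7.74 FPKM for stellate cells, 2.09 FPKM for endothelial cells and 0.194 FPKM for neutrophils in KO + CXCR2i, against at most 6.75, 1.078 and 0.422 FPKM in hepatocytes alone.

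**Figure D1:**
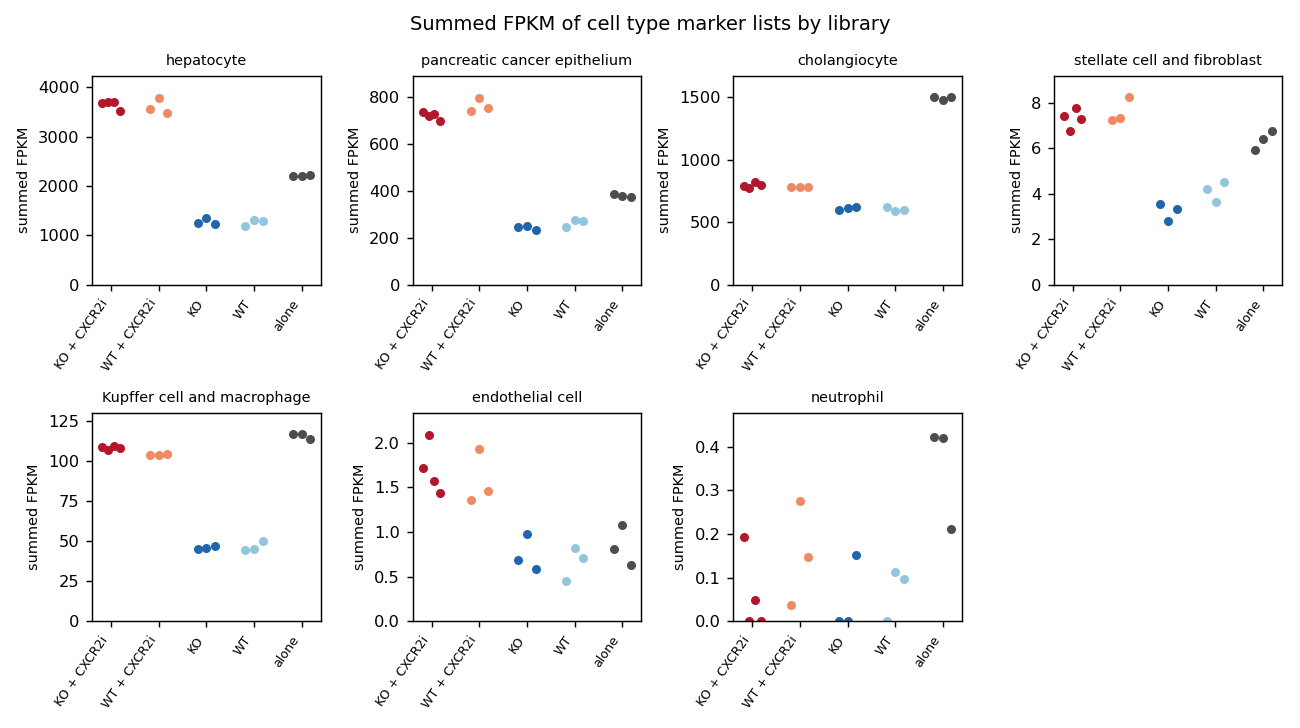
Summed FPKM (vertical axes, each starting at 0) of the 7 cell type marker lists, with 1 point per library in each of the 5 groups. Pancreatic cancer epithelium markers reached 698.9 to 735.8 FPKM in KO + CXCR2i libraries and 371.8 to 384.9 FPKM in hepatocytes alone.

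Genes with a mean of at least 1 FPKM over the 16 libraries were tested on log2(FPKM + 1), 11395 in all, with limma and an adjusted p of at most 0.05. Here and below a fold change is a difference of group means on that scale, which understates the change of low genes, ± is its standard error (SE), and a positive value means higher in KO + CXCR2i. At this threshold 3792 genes (33.3% of those tested) were higher in KO + CXCR2i than in hepatocytes alone and 4113 (36.1%) were lower, together 69.4%. With an added requirement of a 2-fold change, 669 genes (5.87%) were higher and 502 (4.41%) lower, 10.3% together. The libraries of both groups did not overlap for 8023 genes (70.4%). With so large a share of all genes past the threshold, a list in which about 7 of 10 members are called stands near this background. The median log2 fold change of all genes was -0.02. Scaled without mitochondrial genes and the 50 most abundant ones it was 0.07, and more genes were then higher than lower. In bulk RNA, fewer cells of a type and less RNA per cell cannot be told apart, which holds for every value below.

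**Figure D2:**
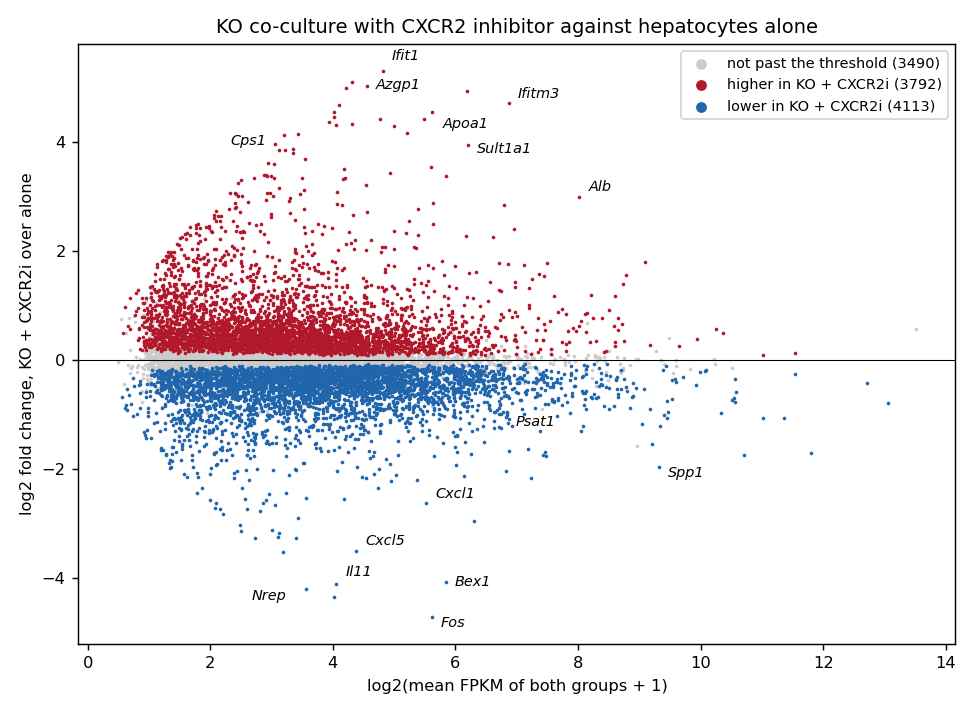
Log2 fold change of KO + CXCR2i over hepatocytes alone (vertical axis) against log2 of the mean FPKM of both groups plus 1 (horizontal axis), with 1 point per tested gene, red where higher, blue where lower and grey where the adjusted p was above 0.05. Ifit1 at 5.29 and Fos at -4.71 are the outermost protein-coding genes of those past the threshold, and Alb and Ifitm3 combine a high level with a large increase.

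The targeted enzyme and its pathway were lower at 2 of 3 steps. Phgdh (chr3:98313170-98339990, GRCm38), which is knocked out in the cancer cells and not in the hepatocytes, had 157, 157, 149.6 and 146 FPKM in the KO + CXCR2i libraries, against 208, 207 and 203 FPKM in hepatocytes alone (log2 fold change -0.43 ± 0.03, adjusted p = 3.22e-08). Psat1, the aminotransferase that follows it, had 75.1, 73.98, 75.2 and 76.4 FPKM in KO + CXCR2i and 154, 147 and 156 FPKM in hepatocytes alone (log2 fold change -1.01 ± 0.05, adjusted p = 6.95e-11). Neither gene's libraries overlapped between the groups. Psph, the phosphatase of the last step, had 10.5, 10.1, 9.86 and 10.9 FPKM in KO + CXCR2i, against 9.72, 9.76 and 8.03 FPKM in hepatocytes alone (log2 fold change 0.16 ± 0.06, adjusted p = 0.0238). That small increase missed the threshold without replicate 3 of hepatocytes alone (adjusted p = 0.171) and without replicate 4 of KO + CXCR2i (0.0647). Psph also overlaps Cct6a on the opposite strand, and strandedness is not given in the sources used here, so reads of the pair cannot be told apart. In KO without the inhibitor the same enzymes averaged 197 FPKM for Phgdh, 117 FPKM for Psat1 and 24.8 FPKM for Psph.

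Of the enzymes that interconvert serine and glycine, Shmt1 of the cytosol was lower (19.6 FPKM in KO + CXCR2i, 28.01 FPKM in hepatocytes alone, log2 fold change -0.50 ± 0.06, adjusted p = 3.19e-06), and mitochondrial Shmt2 averaged 41.8 FPKM in KO + CXCR2i and 44.6 FPKM in hepatocytes alone and missed the threshold (adjusted p = 0.202). Of 31 listed genes of serine, glycine and one-carbon metabolism 26 were tested, with 13 higher, 9 lower and 4 not past the threshold, at a median of 0.13, or 0.24 at a filter of 5 FPKM. Gnmt is 1 of 3 with a mean below 1 FPKM in hepatocytes alone. The largest changes were those of the methionine cycle and transsulfuration. Gnmt, which methylates glycine, had 8.07, 9.26, 8.07 and 8.39 FPKM in KO + CXCR2i and 0.291, 0 and 0.122 FPKM in hepatocytes alone (log2 fold change 3.06 ± 0.16). Cbs and Cth, which turn homocysteine and serine into cysteine, rose by 2.36 and 2.19. Cbs reached 18.9 to 22.2 FPKM in KO + CXCR2i, against 3.04 to 3.33 FPKM in hepatocytes alone. The folate enzyme Aldh1l2 of mitochondria rose by 1.89. Tyms, which makes thymidylate with a folate cofactor, had a log2 fold change of -1.02. Among carriers of neutral amino acids 15 of 22 were tested, 9 higher, 5 lower and 1 not past the threshold. The glutamine carriers Slc38a3 and Slc1a5 rose by 1.89 and 1.69, the aromatic amino acid carrier Slc16a10 by 1.52, and the alanine, serine and cysteine carrier Slc1a4 by 1.16.

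Ligands of CXCR2 were much lower than in hepatocytes alone, and the receptors were not seen. Cxcr1 was at 0 FPKM in all 16 libraries and Cxcr2 at 0 in all 7 of this comparison. Cxcl5 had 2.62, 2.204, 2.29 and 2.36 FPKM in KO + CXCR2i, against 35.4, 37.9 and 38.2 FPKM in hepatocytes alone (log2 fold change -3.50 ± 0.10, adjusted p = 7.68e-13). Cxcl1 had 11.1, 9.78, 13 and 13.5 FPKM in KO + CXCR2i, against 79.9, 79.1 and 75.5 FPKM in hepatocytes alone (log2 fold change -2.63 ± 0.10, adjusted p = 7.22e-12). For both ligands the highest KO + CXCR2i library was far below the lowest library of hepatocytes alone. Cxcl2 had 1.33, 1.48, 1.57 and 1.02 FPKM in KO + CXCR2i and 6.51, 6.58 and 7.45 FPKM in hepatocytes alone (log2 fold change -1.74 ± 0.10). Mif, a cytokine that also binds CXCR2, was the other tested member of the 11 listed and was higher by 0.34 ± 0.06, at a mean of 481 FPKM in KO + CXCR2i and 380.0 FPKM in hepatocytes alone. In KO without the inhibitor Cxcl1 averaged 2.27 FPKM, Cxcl2 0.0652 FPKM and Cxcl5 1.27 FPKM.

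**Figure D3:**
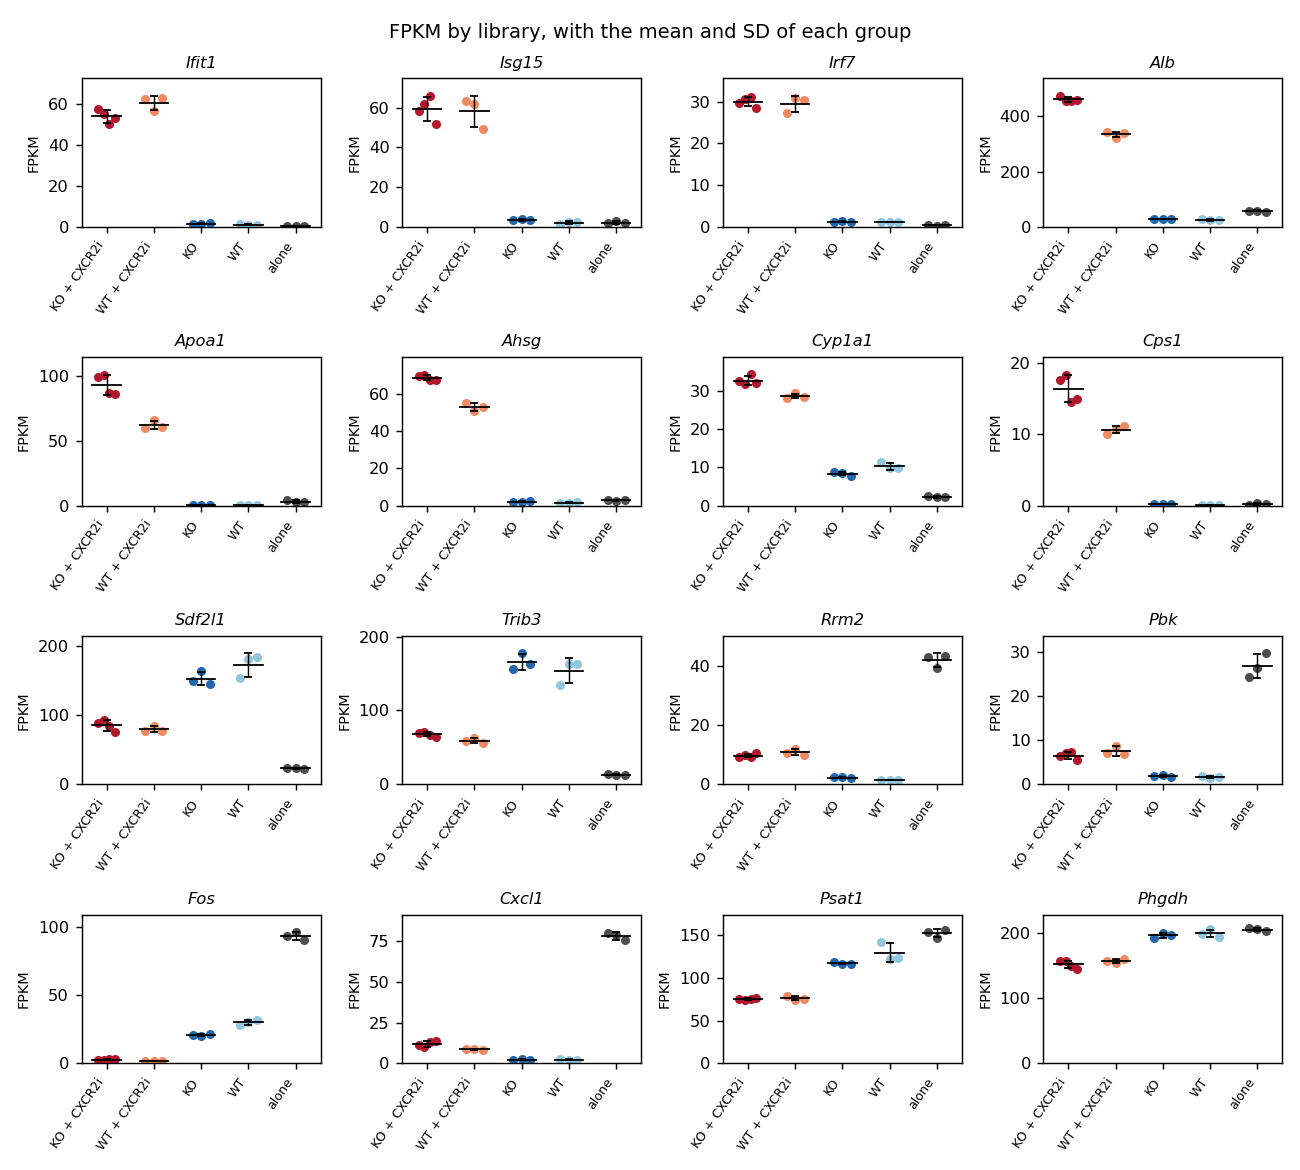
FPKM (vertical axes, each starting at 0) of 16 genes in every library of the 5 groups, with KO + CXCR2i at the left and hepatocytes alone at the right of each panel; bars are the mean and SD. Ifit1, Isg15 and Irf7 are high in both groups with the inhibitor and far lower in the other 3, while Fos and Cxcl1 are highest in hepatocytes alone.

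Interferon-stimulated genes were among those with the largest increases. Ifit1, which binds foreign RNA (chr19:34640871-34650009), had 57.6, 55.02, 50.2 and 53.4 FPKM in KO + CXCR2i, against 0.331, 0.378 and 0.515 FPKM in hepatocytes alone (log2 fold change 5.29 ± 0.09, adjusted p = 3.66e-15). Ifitm3, which restricts virus entry, had 225, 229, 222 and 220.3 FPKM in KO + CXCR2i, against 5.96, 8.51 and 8.798 FPKM in hepatocytes alone (log2 fold change 4.70 ± 0.18, adjusted p = 1.56e-11). The interferon regulator Irf7 had 29.6, 30.7, 31.1 and 28.5 FPKM in KO + CXCR2i, against 0.481, 0.282 and 0.466 FPKM in hepatocytes alone (log2 fold change 4.46 ± 0.07, adjusted p = 1.7e-15). For these 3 genes every KO + CXCR2i library stood far above every library of hepatocytes alone. Isg15, a ubiquitin-like modifier, had 58.1, 61.9, 65.8 and 51.9 FPKM in KO + CXCR2i and 1.78, 2.74 and 1.81 FPKM in hepatocytes alone (log2 fold change 4.29 ± 0.14), and Usp18, the protease that removes it, rose by 4.35 ± 0.07. Trim30a rose by 4.98 ± 0.08 and Apol9b by 5.09 ± 0.14. Among the synthetases that make 2',5'-oligoadenylate, Oas1a reached 18.4 to 20.01 FPKM and Oas3 13.7 to 15.8 FPKM in KO + CXCR2i, against at most 0.233 FPKM for Oas1a and 0.00887 FPKM for Oas3 in hepatocytes alone. Apol9a, at 15.2 to 17.1 FPKM in KO + CXCR2i, was listed at 0 in all 3 libraries of hepatocytes alone, as were Oas1g and Oas2, at means of 4.38 and 2.39 FPKM in KO + CXCR2i. Apol9a and Apol9b, Oas1a and Oas1g, and Ifit3 and Ifit3b are near-identical pairs whose reads the counting could have split.

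Of 55 interferon-stimulated genes listed 51 were tested, and 49 were higher, 45 of them at least 2-fold, at a median log2 fold change of 1.95. Irgm1 was lower (-0.25) and Ifitm2 did not pass the threshold (-0.16, adjusted p = 0.107). For 24 of the 51 the mean in hepatocytes alone was below 1 FPKM, so that they passed the filter through other groups and had to differ; of the other 27, 25 were higher. Stat2 and Irf9 of the signalling complex rose by 2.83 and 1.95, with Stat2 at a mean of 30.03 FPKM in KO + CXCR2i and 3.37 FPKM in hepatocytes alone. Cxcl10, a chemokine induced by interferon, averaged 3.15 FPKM in KO + CXCR2i and 0.488 FPKM in hepatocytes alone (1.48). Irf7 overlaps Phrf1 on the opposite strand, which changed by 0.47. Genes of antigen presentation on MHC class I followed in part, with 12 higher, 2 lower and 3 not past the threshold of 17 tested (21 listed), at a median of 0.73. Of the 17, 4 had a mean below 1 FPKM in hepatocytes alone and passed the filter through other groups; 8 of the other 13 were higher, and at a filter of 5 FPKM 5 of 10 were, at a median of 0.19. The peptide transporters Tap1 and Tap2 rose by 2.04 and 1.73, the immunoproteasome subunit Psmb8 by 1.83 and the class Ib gene H2-Q4 by 1.40. The class I heavy chains H2-K1 and H2-D1 averaged 150.2 and 209.6 FPKM in KO + CXCR2i and 62.2 and 84.2 FPKM in hepatocytes alone. Psmb10, the third catalytic subunit of the immunoproteasome, was lower (-0.69).

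Promoters of these genes were read for the core of the interferon-stimulated response element (GAAA, any 2 bases, then GAAA) on both strands of the window of 250 bases before to 50 bases after each start (RefSeq, GRCm38.p6). The core was held by 22 of 39 tested members with a RefSeq promoter, 56.4%, against 3.99% of all 27025 genes. The 3 windows shown belong to the members with the largest fold changes whose match and flanks lie wholly before the start, and the core is in capitals. Genes of a single chromosome were left out of the choice of windows. They lie at chr19:34640784-34640833 (minus strand, opposite to the gene, motif at -85 from the start), chr4:156200855-156200904 (minus strand, as the gene, at -66) and chr5:120777705-120777754 (minus strand, as the gene, at -75).
Ifit1: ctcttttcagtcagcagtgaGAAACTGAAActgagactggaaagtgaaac
Isg15: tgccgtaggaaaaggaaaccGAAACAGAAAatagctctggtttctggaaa
Oas3: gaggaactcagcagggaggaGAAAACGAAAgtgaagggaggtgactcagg
A match describes the letters of the window and shows no binding.

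Secreted plasma proteins of hepatocytes also rose. Alb, serum albumin (chr5:90460897-90476602), had 475, 454, 455 and 460.2 FPKM in KO + CXCR2i, against 57.8, 58.4 and 55.01 FPKM in hepatocytes alone (log2 fold change 2.99 ± 0.05, adjusted p = 3.48e-15). Apoa1, the main protein of high-density lipoprotein, had 99.2, 101, 87.02 and 86.2 FPKM in KO + CXCR2i, against 4.41, 2.43 and 2.53 FPKM in hepatocytes alone (log2 fold change 4.54 ± 0.16, adjusted p = 6.26e-12). All 4 KO + CXCR2i libraries were far above all 3 of hepatocytes alone. Ahsg and Fetub, the fetuins, rose by 4.15 ± 0.08 and 4.55 ± 0.06, and Apoc1 by 4.41 ± 0.20. Azgp1, a lipid-mobilizing plasma glycoprotein, had 46.96, 49.9, 42.2 and 38.8 FPKM in KO + CXCR2i and 0.473, 0.545 and 0.182 FPKM in hepatocytes alone (log2 fold change 5.02 ± 0.12). Of 24 secreted proteins listed 16 were tested, with 14 higher, 11 of them at least 2-fold, none lower and 2 not past the threshold, at a median of 1.76, or 0.92 without the filter; 1 had a mean below 1 FPKM in hepatocytes alone. Apob and the vitamin D carrier Gc were the exceptions, with Apob at a mean of 44.5 FPKM in KO + CXCR2i and 47.8 FPKM in hepatocytes alone.

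Fibrinogen and complement genes moved the same way, though not as a whole list. Fga, the fibrinogen alpha chain, had 30.6, 28.5, 29.5 and 27.97 FPKM in KO + CXCR2i, against 2.704, 2.52 and 2.55 FPKM in hepatocytes alone (log2 fold change 3.07 ± 0.08, adjusted p = 2.51e-13), and Fgb rose by 2.45. Among acute phase proteins 16 of 27 were tested, with 9 higher, 5 lower and 2 not past the threshold, and the inter-alpha-trypsin inhibitor chains Itih3 and Itih4 rose by 2.54 and 2.64. Of complement and coagulation genes 25 of 47 were tested, with 16 higher, 5 lower and 4 not past the threshold, at a median of 0.69, or 0.25 without the filter. C1s1, a protease of the classical pathway, had 19.8, 18.1, 18.7 and 18.3 FPKM in KO + CXCR2i and 1.37, 1.38 and 1.44 FPKM in hepatocytes alone (log2 fold change 3.04 ± 0.06). C4b rose by 2.36 ± 0.04, the plasmin inhibitor Serpinf2 by 2.36 ± 0.14 and kininogen Kng1 by 2.22 ± 0.09. In each of the acute phase and complement lists 4 tested members had a mean below 1 FPKM in hepatocytes alone and passed the filter through other groups; 5 of the other 12 acute phase and 12 of the other 21 complement genes were higher.

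Transcription factors of hepatocyte identity were mostly higher. Of 18 listed 16 were tested, with 13 higher, 4 of them at least 2-fold, 1 lower and 2 not past the threshold, at a median of 0.63. Nr0b2 is 1 of 2 with a mean below 1 FPKM in hepatocytes alone that passed the filter through other groups, and 11 of the other 14 were higher. Cebpa, which drives many liver genes, had 41.4, 44.04, 44.2 and 46.1 FPKM in KO + CXCR2i, against 10.1, 9.58 and 9.59 FPKM in hepatocytes alone (log2 fold change 2.06 ± 0.06, adjusted p = 5.83e-13). Nr0b2, a corepressor in bile acid feedback, had 6.91, 8.63, 8.51 and 7.61 FPKM in KO + CXCR2i, against 0.0517, 0.111 and 0.0432 FPKM in hepatocytes alone (log2 fold change 3.06 ± 0.12, adjusted p = 1.81e-11). Their groups did not overlap. The xenobiotic receptor Nr1i2 and the fatty acid receptor Ppara rose by 2.08 and 1.93, and Hnf4a averaged 73.8 FPKM in KO + CXCR2i and 46.6 FPKM in hepatocytes alone (0.65). Foxa2 and Foxa3 did not pass the threshold (adjusted p = 0.581 and 0.0504).

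Most drug-metabolizing enzymes above the filter rose. Cyp1a1, a target of the aryl hydrocarbon receptor, had 32.4, 31.8, 34.2 and 31.9 FPKM in KO + CXCR2i, against 2.54, 2.11 and 2.298 FPKM in hepatocytes alone (log2 fold change 3.34 ± 0.06, adjusted p = 3e-15). Cyp1a2, a related P450, rose by 1.74 ± 0.12, to 2.75 to 3.67 FPKM, and Tiparp, a repressor of that receptor, by 0.70 ± 0.07. Of the receptor's 14 listed targets 7 were tested, with 6 higher and 1 not past the threshold, and 2 had a mean below 1 FPKM in hepatocytes alone. Of 31 cytochrome P450 genes 14 were tested, 13 higher and 1 not past the threshold (Cyp51), at a median of 1.44. Of these, 3 had a mean below 1 FPKM in hepatocytes alone and passed the filter through other groups, and without the filter 19 of all 31 were higher, at a median of 0.20. Cyp4b1 rose by 2.66, Cyp3a11 by 2.10 and Cyp3a13 by 2.07; Cyp3a13 shares its locus with Gm15502 on the same strand. Cyp3a11, the main drug-metabolizing P450 of adult liver, reached 3.09 to 3.88 FPKM in KO + CXCR2i, against 0 to 0.172 FPKM in hepatocytes alone. Among conjugation enzymes 24 of 36 were tested, with 16 higher, 2 lower and 6 not past the threshold, and 2 had a mean below 1 FPKM in hepatocytes alone. The phenol sulfotransferase Sult1a1 had 150.3, 133, 129.6 and 138 FPKM in KO + CXCR2i, against 8.43, 8.19 and 7.66 FPKM in hepatocytes alone (log2 fold change 3.93 ± 0.10, adjusted p = 1.2e-13). It overlaps Sgf29 on the opposite strand, which changed by -0.06. Sult1d1, Ugt2b34 and Gstm2 rose by 2.55, 1.60 and 1.30. Of 25 bile acid genes 13 were tested, 8 higher, 3 lower and 2 not past the threshold, and 2 of the 13 had a mean below 1 FPKM in hepatocytes alone; Akr1d1 and Acox2 rose by 2.03 and 1.05. Cyp7a1, the rate-limiting enzyme of bile acid synthesis, was at 0 FPKM on average in both groups.

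Genes of the urea cycle were divided, and genes of glucose handling were mostly higher. Cps1, the entry enzyme of the urea cycle, had 17.7, 18.3, 14.6 and 15 FPKM in KO + CXCR2i, against 0.116, 0.293 and 0.2201 FPKM in hepatocytes alone (log2 fold change 3.84 ± 0.08, adjusted p = 1.4e-14), and Ass1 rose by 2.86 ± 0.08. Of 9 urea cycle genes 5 were tested, with 2 higher, 2 lower and 1 not past the threshold, at a median of -0.10, and 1 had a mean below 1 FPKM in hepatocytes alone. The carriers Slc25a13 and Slc25a15 changed by -0.27 and -0.11. Of 26 genes of gluconeogenesis, fructose and glycogen metabolism 17 were tested, with 13 higher, 2 lower and 2 not past the threshold, at a median of 0.95, or 0.62 without the filter. Gckr is 1 of 3 with a mean below 1 FPKM in hepatocytes alone that passed the filter through other groups, and 10 of the other 14 were higher. Gckr, the regulator of glucokinase, reached 8.31 to 8.56 FPKM in KO + CXCR2i, against 0.101 to 0.214 FPKM in hepatocytes alone, and the glucose carrier Slc2a2 rose by 2.19. The glucose-6-phosphatase gene G6pc was under the filter, with means of 1.98 FPKM in KO + CXCR2i and 0.05002 FPKM in hepatocytes alone.

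Genes of glycolysis and the hypoxia response were mostly higher. Of 32 listed 29 were tested, with 22 higher, 13 of them at least 2-fold, 2 lower and 5 not past the threshold, at a median of 0.77. Adm is 1 of 4 with a mean below 1 FPKM in hepatocytes alone that passed the filter through other groups, and 18 of the other 25 were higher. Adm, adrenomedullin, had 29.9, 30.6, 39.1 and 28.2 FPKM in KO + CXCR2i, against 0.506, 0.3097 and 0.0604 FPKM in hepatocytes alone (log2 fold change 4.68 ± 0.12, adjusted p = 2.76e-13). Bnip3, a mitophagy receptor, had 84.98, 76.7, 89.9 and 94.1 FPKM in KO + CXCR2i, against 10.6, 10.6 and 11.3 FPKM in hepatocytes alone (log2 fold change 2.88 ± 0.08, adjusted p = 3.91e-13). Both are textbook targets of hypoxia-inducible factors. Vegfa and Ndrg1, of the same class, rose by 2.71 ± 0.06 and 2.26 ± 0.04, and the glucose carrier Slc2a1 averaged 63.5 FPKM in KO + CXCR2i and 19.2 FPKM in hepatocytes alone (1.68). Hif1a itself did not pass the threshold (-0.20, adjusted p = 0.0519).

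Fat oxidation genes rose in part, and most sterol synthesis genes fell. Pdk4, which restrains pyruvate oxidation, had 8.47, 9.73, 8.23 and 8.57 FPKM in KO + CXCR2i, against 1.08, 0.857 and 0.808 FPKM in hepatocytes alone. Pdk4 and the fatty acid carrier Fabp1 rose by 2.35 ± 0.08 and 2.13 ± 0.26, and the fatty acid oxidation list had 19 higher, 6 lower and 6 not past the threshold of 31 tested (33 listed), of which 3 had a mean below 1 FPKM in hepatocytes alone. Of 30 genes of cholesterol synthesis and uptake 27 were tested, with 4 higher, 20 lower and 3 not past the threshold, at a median of -0.28. Idi1, an isomerase of the pathway, had 4.39, 4.43, 4.504 and 5.26 FPKM in KO + CXCR2i and 13.8, 14.7 and 14.4 FPKM in hepatocytes alone (log2 fold change -1.44 ± 0.09). Soat2, which esterifies cholesterol, and Abca1, which exports it, were among the 4 that rose, Soat2 by 2.91 and Abca1 by 1.25. Lipogenesis and triglyceride storage showed 9 higher, 10 lower and 3 not past the threshold of 22 tested (29 listed), with a median of -0.02 whose sign changed under other scalings. In that list Lpin2 rose by 2.14 and the carbohydrate-responsive factor Mlxipl by 1.89, and the elongase Elovl6 fell by 1.10 on the log2 scale.

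**Figure D4:**
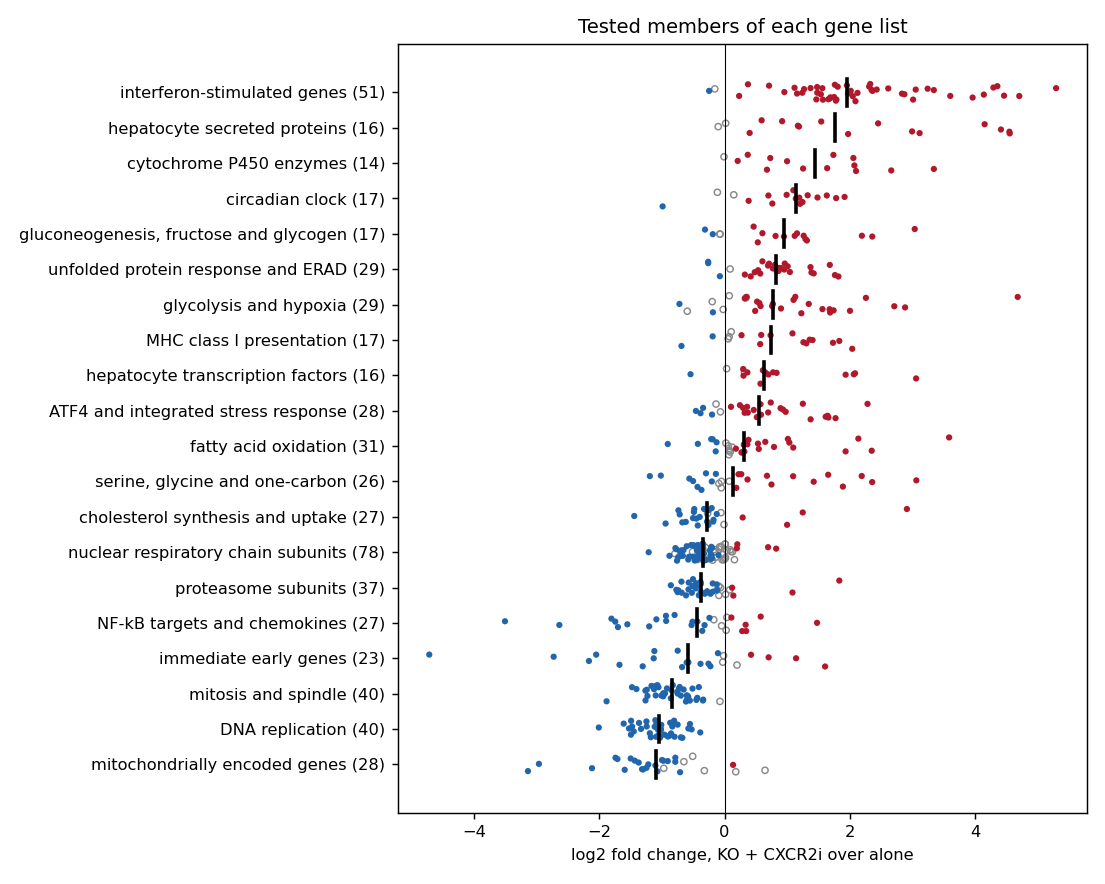
Log2 fold change of KO + CXCR2i over hepatocytes alone (horizontal axis) for the tested members of 20 gene lists, with 1 point per gene, red where higher, blue where lower and open grey where the adjusted p was above 0.05; black bars mark medians. Interferon-stimulated genes have a median of 1.95, and DNA replication genes, at a median of -1.04, have no member above 0.

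Most stress genes of the endoplasmic reticulum were higher. Of 30 genes of the unfolded protein response and of the breakdown of misfolded proteins 29 were tested, with 25 higher, 8 of them at least 2-fold, 3 lower and 1 not past the threshold, at a median of 0.82. The chaperone partner Sdf2l1 had 88.8, 92.8, 84.3 and 74.9 FPKM in KO + CXCR2i, against 23.5, 24.1 and 22.6 FPKM in hepatocytes alone (log2 fold change 1.82 ± 0.08, adjusted p = 3.34e-11). Creld2, a secreted stress protein, had 76.8, 78.6, 75.9 and 66.3 FPKM in KO + CXCR2i, against 22.6, 22.9 and 21.98 FPKM in hepatocytes alone (log2 fold change 1.68 ± 0.09, adjusted p = 4.41e-10). The coat protein Sec24d and the ubiquitin-domain protein Herpud1 rose by 1.76 ± 0.06 and 1.42 ± 0.04. Hspa5, the master chaperone of the compartment, averaged 618 ± 17.1 FPKM in KO + CXCR2i and 236 ± 4.58 FPKM in hepatocytes alone (SD), a log2 fold change of 1.39 ± 0.04. The chaperone Canx was among the 3 that were lower (-0.26). Targets of Atf4, the factor of the integrated stress response, had 22 higher, 4 lower and 2 not past the threshold of 28 tested (29 listed), at a median of 0.54. Trib3, a pseudokinase that restrains this response, had 70.2, 71.04, 67.3 and 64.4 FPKM in KO + CXCR2i, against 14.3, 13.1 and 12.3 FPKM in hepatocytes alone (log2 fold change 2.28 ± 0.07, adjusted p = 1.66e-12). Atf5, Ddit3 and the lipoprotein receptor Vldlr rose by 1.77, 1.66 and 1.64. Atf5 and Ddit3 overlap Nup62 and Mars on the opposite strand, which changed by -0.69 and -0.34. Of 20 cytosolic aminoacyl-tRNA synthetases 12 were higher, 3 lower and 5 not past the threshold, with Vars the most changed (0.82).

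Promoters of the unfolded protein response list were read for the endoplasmic reticulum stress response element (CCAAT, any 9 bases, then CCACG). It was found on either strand in 8 of 24 promoters of tested members, 33.3%, against 0.137% of all genes. The windows of the 3 members with the largest fold changes whose match lies wholly before the start are shown with the element in capitals, genes of a single chromosome left out. They lie at chr15:88819500-88819558 (minus strand, opposite to the gene, element at -126 from the start), chr2:34772005-34772063 (plus strand, as the gene, at -65) and chr14:118937807-118937865 (plus strand, as the gene, at -105).
Creld2: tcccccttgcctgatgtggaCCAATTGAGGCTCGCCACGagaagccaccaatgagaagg
Hspa5: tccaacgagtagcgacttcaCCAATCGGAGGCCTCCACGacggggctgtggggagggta
Dnajc3: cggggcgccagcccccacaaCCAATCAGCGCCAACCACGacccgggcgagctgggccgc
Dnajc3, a cochaperone of Hspa5, rose by 0.96 ± 0.06. The core bound by Atf4 with C/EBP factors, TGATGNAA, was in 9 of 23 promoters of tested Atf4 targets, 39.1%, against 4.51% of all genes.

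Cytosolic heat shock genes parted. The inducible Hsp70 genes Hspa1b and Hspa1a, a near-identical pair, rose by 4.41 ± 0.09 and 3.34 ± 0.10, with Hspa1b at 53.8, 55.3, 51.2 and 44.7 FPKM in KO + CXCR2i and 1.11, 1.72 and 1.55 FPKM in hepatocytes alone. The rest of the list was mostly lower, with 14 of 21 tested members lower, 4 higher and 3 not past the threshold. Cryab, a small heat shock protein, fell by 1.51 on the log2 scale, to 43.8 to 45.8 FPKM in KO + CXCR2i, against 124 to 132 FPKM in hepatocytes alone, and the cochaperone Stip1 changed by -0.81.

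Inflammatory genes were more often lower than higher. Of 38 targets of NF-kB 27 were tested, with 6 higher, 17 lower, 8 of them at least 2-fold, and 4 not past the threshold, at a median of -0.43, or -0.24 without the filter. Besides the CXCR2 ligands, the monocyte attractants Ccl7 and Ccl2 fell, Ccl7 to 10.04, 9.88, 9.45 and 9.85 FPKM in KO + CXCR2i, against 32.8, 40.8 and 37.1 FPKM in hepatocytes alone (log2 fold change -1.80 ± 0.09, adjusted p = 3.17e-10). Ccl2 averaged 299 ± 9.83 FPKM in KO + CXCR2i and 878 ± 12.7 FPKM in hepatocytes alone (SD), a log2 fold change of -1.55 ± 0.04. Of 19 STAT3 and gp130 genes 16 were tested, 8 higher, 7 lower and 1 not past the threshold; the kinase Pim1 rose by 1.57, and Cish, Cebpd and Socs3 changed by -1.31, -1.07 and -1.05. The cytokine Il11 had 1.04, 0.573, 1.25 and 0.509 FPKM in KO + CXCR2i, against 32.04, 28.9 and 30.1 FPKM in hepatocytes alone (log2 fold change -4.11 ± 0.13, adjusted p = 2.35e-12).

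The largest decrease of any protein-coding gene was that of Fos (chr12:85473890-85477273), a subunit of the AP-1 factor. It had 2.21, 2.19, 2.98 and 3.12 FPKM in KO + CXCR2i, against 93.4, 95.99 and 90.7 FPKM in hepatocytes alone (log2 fold change -4.71 ± 0.08, adjusted p = 3.16e-15). Of 26 immediate early genes 23 were tested, with 4 higher, 16 lower, 8 of them at least 2-fold, and 3 not past the threshold, at a median of -0.58. Fosb changed by -2.73 ± 0.09, Ier3 by -2.16 ± 0.05 and Ier2 by -2.05 ± 0.06, while Fosl1, another Fos family member, was higher (1.60 ± 0.06), at a mean of 121 FPKM in KO + CXCR2i and 39.1 FPKM in hepatocytes alone. Feedback genes of MAP kinase signalling were divided, with 8 higher, 7 lower and 3 not past the threshold of 18 tested (19 listed). The phosphatase Dusp14 fell by 1.74 on the log2 scale, and Errfi1, an inhibitor of the EGF receptor, rose by 1.14. Of 13 EGF family and ERBB genes 8 were tested, 3 higher, 4 lower and 1 not past the threshold, with the ligands Areg, Btc and Tgfa higher (1.48, 0.75 and 0.57) and Ereg lower (-0.81).

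Cell division genes were lower almost without exception. All 40 DNA replication genes were tested and lower, 24 of them at least 2-fold, at a median of -1.04. Rrm2, the regulated subunit of ribonucleotide reductase, had 9.39, 9.89, 9.19 and 10.5 FPKM in KO + CXCR2i, against 43.3, 39.6 and 43.6 FPKM in hepatocytes alone (log2 fold change -2.01 ± 0.07, adjusted p = 2.55e-12). The replication licensing factor Cdc6 fell to 1.39, 1.21, 1.39 and 1.06 FPKM in KO + CXCR2i, against 6.01, 5.88 and 5.74 FPKM in hepatocytes alone (log2 fold change -1.61 ± 0.07, adjusted p = 7.07e-11). Their groups did not overlap. Prim1, a primase subunit, and Ccne1, cyclin E1, changed by -1.52 ± 0.10 and -1.49 ± 0.11. Of 40 mitosis and spindle genes 39 were lower, 14 at least 2-fold, at a median of -0.84, and the centromeric histone Cenpa missed the threshold (-0.07, adjusted p = 0.406). The mitotic kinase Pbk had 6.48, 7.02, 7.25 and 5.48 FPKM in KO + CXCR2i, against 24.3, 26.4 and 29.7 FPKM in hepatocytes alone (log2 fold change -1.88 ± 0.10, adjusted p = 7.26e-10). Aurkb, Birc5 and Ect2 changed by -1.48, -1.41 and -1.26. Among G1 cyclins and inhibitors of their kinases 19 of 22 were tested, with 2 higher, 13 lower and 4 not past the threshold, and Cdkn2a, which encodes p16 and p19, fell to 1.88 to 3.08 FPKM in KO + CXCR2i, against 17.8 to 20.7 FPKM in hepatocytes alone (-2.54). Targets of p53 were divided, with 7 higher, 10 lower and 7 not past the threshold of 24, Trp53inp1 at 1.71 and Btg2 at -1.31.

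The cell cycle genes homology region, TTTGAA, was present on either strand in 26 of 34 promoters of tested mitosis genes, 76.5%, against 20.2% of all genes. The E2F core TTTNNCGC was in 14 of 32 promoters of DNA replication genes, 43.8%, against 5.93% of all genes. Windows of the 3 members of each list with the lowest fold changes and a match wholly before the start follow, with the motif in capitals. Genes of a single chromosome were left out of this choice. Those of the mitosis genes lie at chr3:27153967-27154012, chr10:69352958-69353003 and chr11:99024343-99024388, all on the minus strand as their genes, with the motif at -114, -71 and -179 from the start. Those of the replication genes lie at chr11:98907993-98908040 and chr8:75109340-75109387 (minus strand, opposite to the genes, motif at -138 and -149) and chr17:56303261-56303308 (plus strand, as the gene, motif at -56).
Ect2: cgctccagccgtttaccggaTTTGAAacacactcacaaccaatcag
Cdk1: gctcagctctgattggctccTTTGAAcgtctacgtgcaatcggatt
Top2a: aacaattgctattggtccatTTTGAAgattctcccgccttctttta
Cdc6: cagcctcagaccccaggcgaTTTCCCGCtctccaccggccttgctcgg
Mcm5: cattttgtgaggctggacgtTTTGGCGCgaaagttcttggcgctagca
Uhrf1: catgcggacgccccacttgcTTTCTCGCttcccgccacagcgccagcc
The kinase Cdk1 and the topoisomerase Top2a changed by -1.24 ± 0.06 and -1.05 ± 0.05, and the helicase subunit Mcm5 and Uhrf1, which maintains DNA methylation, by -1.25 and -1.24. Other searches gave matches of the antioxidant element TGACNNNGC in 9 of 19 promoters of NRF2 targets (47.4%, all genes 14.0%) and of the sterol element TCACNCCAC in 1 of 19 of cholesterol genes (5.26%, all genes 1.44%). No promoter held the AP-1 site TGANTCA among 18 immediate early genes (all genes 8.97%) or the dioxin element TNGCGTG among 6 targets of the aryl hydrocarbon receptor (all genes 5.84%).

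Genes of dedifferentiation, matrix and the cytoskeleton fell more often than they rose. Of 27 YAP targets and dedifferentiation genes 26 were tested, with 8 higher, 17 lower and 1 not past the threshold. Spp1, osteopontin, had 252, 239, 268 and 283 FPKM in KO + CXCR2i, against 1010 to 1020 FPKM in hepatocytes alone (log2 fold change -1.96 ± 0.05, adjusted p = 3.32e-13). Cyr61, a matricellular YAP target, had 78.2, 77.1, 82.96 and 84.4 FPKM in KO + CXCR2i, against 273, 274 and 278 FPKM in hepatocytes alone (log2 fold change -1.76 ± 0.05, adjusted p = 5.08e-13). No library of the groups overlapped for either gene. Tead2, the DNA-binding partner of YAP, changed by -3.28 ± 0.09. Of 42 TGF-beta targets and matrix genes 28 were tested, with 7 higher, 18 lower and 3 not past the threshold, at a median of -0.39, or -0.26 at a filter of 5 FPKM. The ligand Tgfb3 and the repressor Id3 changed by -2.12 ± 0.06 and -1.97 ± 0.12, whereas fibronectin Fn1 and laminin Lama5 rose by 1.47 ± 0.03 and 1.48 ± 0.04. Of 30 actin and contractility genes 25 were tested, 8 higher and 17 lower, among them cofilin Cfl1 (-1.18) and tropomyosin Tpm1 (-1.16). Epithelial keratins and junction genes were mostly higher, with 13 higher, 2 lower and 2 not past the threshold of 17 tested (28 listed). The claudin Cldn6 had 12.7, 12.8, 13.3 and 12.04 FPKM in KO + CXCR2i and 1.02, 0.728 and 1.85 FPKM in hepatocytes alone (log2 fold change 2.67 ± 0.12), and the hepatocyte gap junction gene Gjb1 rose by 2.54 ± 0.08. The pancreatic cancer epithelium markers Krt19 and Krt20 are in this list and rose, Krt20 by 1.16.

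Other genes among the 20 largest decreases follow. Bex1 had 6.17, 5.11, 6.15 and 4.42 FPKM in KO + CXCR2i, against 115, 98.4 and 109.5 FPKM in hepatocytes alone (log2 fold change -4.08 ± 0.18, adjusted p = 5.88e-11). Nrep had 0.236, 0.1196, 0.219 and 0.2396 FPKM in KO + CXCR2i, against 20.3, 22.9 and 20.8 FPKM in hepatocytes alone (log2 fold change -4.21 ± 0.07, adjusted p = 3e-15). For both genes the groups were far apart. Evl and Dbn1, which act on actin filaments, changed by -3.52 and -3.28, the neurotensin gene Nts by -2.64, Nkain1 by -2.77 and the secreted ligand Wnt7b by -2.90. Alkaline phosphatase Alpl, the proteoglycan Gpc4, podocalyxin Podxl, the protease Prss23, the cytokine receptor chain Il2rg, Praf2 and the histone gene Hist1h2bg complete the 20 lowest, at log2 fold changes of -3.24 to -2.67. Nrep, Evl, Dbn1, Nts, Alpl, Podxl, Prss23, Il2rg, Praf2 and Fosb were below 1 FPKM in every KO + CXCR2i library. In that group Evl had 0.343 to 0.622 FPKM and Nts 0.110 to 0.281 FPKM. These genes passed the filter through other groups and had to be lower than some of them. Among hepatokine and IGF genes 15 of 25 were tested, with 10 higher, 4 lower and 1 not past the threshold, and Igfbp1, which binds insulin-like growth factors, is also among the 20 highest genes (4.32 ± 0.14).

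Transcripts of mitochondria and proteasomes were more often lower than higher. Of 37 mitochondrially encoded genes 28 were tested, with 1 higher, 21 lower, 15 of them at least 2-fold, and 6 not past the threshold, at a median of -1.09. The complex I subunit gene mt-Nd2 had 768, 743, 751 and 807 FPKM in KO + CXCR2i, against 2423 to 2722 FPKM in hepatocytes alone (log2 fold change -1.74 ± 0.11, adjusted p = 2.28e-09). Of 84 nuclear-encoded subunits of the respiratory chain 78 were tested, with 4 higher, 47 lower and 27 not past the threshold, at a median of -0.34, and Ndufa4 was the most changed (-1.21). Of 83 ribosomal protein genes 79 were tested, with 4 higher, 30 lower and 45 not past the threshold, so that the share lower was near the 36.1% of all genes; quantile normalization gave 16 higher and 20 lower. Of 39 proteasome genes 37 were tested, with 4 higher, 27 lower and 6 not past the threshold. The lysosome and autophagy list had 6 higher, 20 lower and 10 not past the threshold of 36. Iron genes were mixed, with 4 higher, 7 lower and 3 not past the threshold of 14 tested (19 listed), and the iron exporter Slc40a1 and the transferrin receptor Tfrc changed by -2.15 and -1.49. Targets of NRF2 had 9 higher, 8 lower and 5 not past the threshold of 22 tested (24 listed), with Gstm1 at 1.16. Clock genes rose, with 14 higher, 1 lower and 2 not past the threshold of 17 tested (19 listed), at a median of 1.14, and 2 had a mean below 1 FPKM in hepatocytes alone. Per1 had 19.5, 19.02, 19.2 and 18.4 FPKM in KO + CXCR2i and 4.097, 4.58 and 4.25 FPKM in hepatocytes alone (log2 fold change 1.92 ± 0.07), and Per2 and Rora rose by 1.63 and 1.78. The time of harvest is not given in the sources used here.

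Setting KO + CXCR2i against KO shows the same co-culture with and without the inhibitor. Here 3962 genes (34.8%) were higher and 3954 (34.7%) lower in KO + CXCR2i, 69.5% together, with 888 (7.79%) and 354 (3.11%) changed at least 2-fold. The comparisons of KO + CXCR2i and of KO with hepatocytes alone share the libraries of hepatocytes alone, so their values are only set side by side. KO against hepatocytes alone called 61.5% of genes. For interferon-stimulated genes the median log2 fold change was 1.95 in KO + CXCR2i over hepatocytes alone, 0.02 in KO over hepatocytes alone (-0.01 without the 2 genes at 0 in hepatocytes alone) and 2.09 in KO + CXCR2i over KO, where 50 of 51 were higher. For secreted liver proteins these medians were 1.76, -0.38 and 1.95, and for mitosis genes -0.84, -2.53 and 1.60, with all 40 mitosis genes higher in KO + CXCR2i than in KO. For NF-kB targets they were -0.43, -1.38 and 1.16, and for the unfolded protein response 0.82, 1.49 and -0.71, with 27 of 29 genes lower in KO + CXCR2i than in KO. Among genes at least 2-fold changed against hepatocytes alone, the largest increases over KO included those of Sult1a1 (6.58 ± 0.10), Apoa1 (5.89 ± 0.16), Ifitm3 (5.75 ± 0.18), Hspa1b (5.08 ± 0.09), Trim30a (4.81 ± 0.08), Ahsg (4.50 ± 0.08) and Ifit1 (4.43 ± 0.09). Sult1a1 averaged 138 ± 9.12 FPKM in KO + CXCR2i and 0.459 ± 0.242 FPKM in KO (SD), while hepatocytes alone had 8.09 ± 0.396 FPKM. The largest decreases from KO were those of Cdkn2a (-3.12), the protease Htra1 (-3.11), Evl (-3.09), Fam19a5 (-3.01), Bex1 (-2.96), the GDNF receptor Gfra1 (-2.95), Podxl (-2.78) and Nkain1 (-2.75). Htra1, Evl, Gfra1 and Podxl were below 1 FPKM in every KO + CXCR2i library and passed the filter through other groups. Ccl2 averaged 299 ± 9.83 FPKM in KO + CXCR2i and 16.1 ± 0.625 FPKM in KO (4.13 ± 0.04). Phgdh, Psat1 and Psph were all lower in KO + CXCR2i than in KO (-0.37, -0.63 and -1.19).

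**Figure D5:**
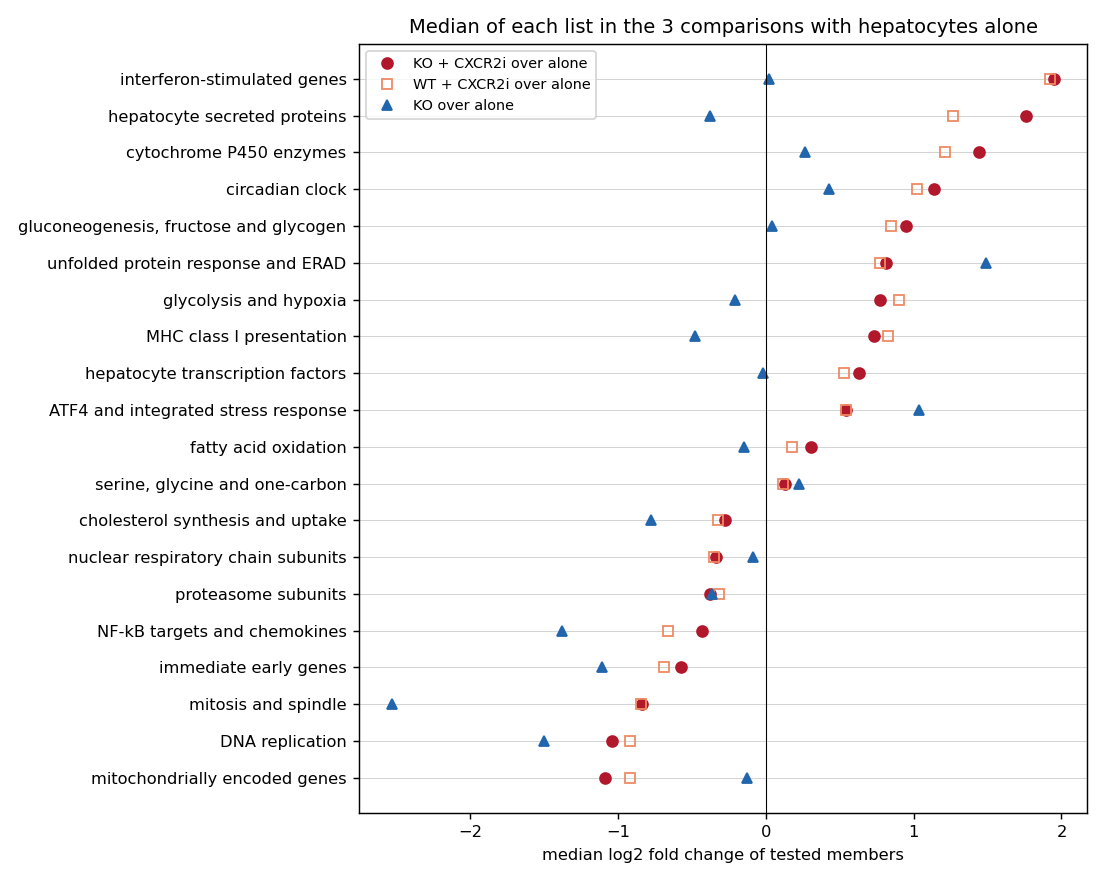
Median log2 fold change (horizontal axis) of the tested members of 20 gene lists over hepatocytes alone, for KO + CXCR2i (filled circles), WT + CXCR2i (open squares) and KO (triangles); the 3 comparisons share the libraries of hepatocytes alone. Interferon-stimulated genes lie at 1.95, 1.92 and 0.02, and mitosis genes at -0.84, -0.85 and -2.53.

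Few genes differed by the genotype of the cancer cells when the inhibitor was present. Between KO + CXCR2i and WT + CXCR2i, 189 genes (1.66%) were higher and 74 (0.649%) lower, 2.31% together, and 2 (0.0176%) changed at least 2-fold. Leaving out 1 library at a time gave 92 to 164 higher and 26 to 57 lower genes. The number higher was 92, 103 and 99 without replicates 1, 2 and 3 of WT + CXCR2i and 119 without replicate 1 or 2 of KO + CXCR2i, each lower by over 1.5 times. The number lower was 31, 39 and 26 without replicates 1, 2 and 3 of WT + CXCR2i and 37, 47 and 45 without replicates 1, 2 and 3 of KO + CXCR2i. WT + CXCR2i against hepatocytes alone called 66.8% of genes, and the list medians of both treated co-cultures over hepatocytes alone were 1.95 (KO + CXCR2i) and 1.92 (WT + CXCR2i) for interferon-stimulated genes and -1.04 and -0.92 for DNA replication. Of the secreted liver proteins, 7 of 16 were higher in KO + CXCR2i than in WT + CXCR2i and none lower, with a median of 0.39, beside a median of 0.00 over all genes. Alb averaged 461 ± 9.61 FPKM in KO + CXCR2i and 335 ± 10.3 FPKM in WT + CXCR2i (SD; log2 fold change 0.46 ± 0.05, adjusted p = 0.000382). Identity factors had 7 of 16 higher and acute phase proteins 8 of 16, again with none lower. The highest, among genes changed at least 2-fold against hepatocytes alone, included Cyp2d26 (0.74 ± 0.10), Nr0b2 (0.67 ± 0.12), Fga (0.62 ± 0.08) and Serpinf2 (0.60 ± 0.14), all expressed in liver. The lowest were Ifi207 (-0.68 ± 0.10), Acsbg1 (-0.56 ± 0.06), Ifit3 (-0.53 ± 0.09), Cldn6 (-0.53 ± 0.12) and Ifit3b (-0.48 ± 0.11). The calls of Serpinf2 (adjusted p = 0.0435), Cldn6 (0.0307) and Ifit3b (0.037) were each lost under 11 of the alternatives. Of the 2 genes past 2-fold, Atf3, a stress-induced factor outside the rule and named after its values were seen, averaged 23.9 ± 0.291 FPKM in KO + CXCR2i and 9.87 ± 1.08 FPKM in WT + CXCR2i (SD; log2 fold change 1.20 ± 0.06, adjusted p = 6.49e-08), with 31.5 ± 1.26 FPKM in hepatocytes alone; the other was the microRNA gene Mir7669. Phgdh, Psat1 and Psph missed the threshold between these groups, at adjusted p of 0.655, 0.924 and 0.968.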

How the data were processed

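RNA sequencing of mouse hepatocytes was analysed from the deposited table of 54532 genes and 16 libraries. An RNeasy mini kit served for extraction and Novogene's protocols for the libraries, per the labels' protocols. HISAT2 is named without a version, with the builds GRCm38 and mm10, per the submitters' processing notes. Counting tool, annotation release and strandedness: not given in the sources used here. FPKM values were computed and deposited by the authors and were used without further scaling. After multiplication by gene length, 99.98 to 100% of values lay within 0.1 of a whole multiple of 1 step per library, which gave the fragment totals; these carry counting error only, since duplicates cannot be told from separate molecules. Limma 3.58.1 (R 4.3.3) fitted log2(FPKM + 1) of all 16 libraries with group means as the only terms, an intensity trend and 11 residual degrees of freedom. Genes with a mean of at least 1 FPKM entered, 11395 in all, 10226 of them protein coding. P-values were two-sided and adjusted by Benjamini and Hochberg's method across those genes, with a threshold of 0.05, in each of 6 comparisons. The fit was also run on simulated counts with the same extra spread for all genes and few changed genes. That setting is unlike these data, so no support is drawn from it. Gene symbols turned into dates in the table (27) were left as they stood.

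The members, lists, motifs and rules were chosen with earlier results of these data known, so list counts are descriptions. Named genes were drawn from a rule, which took the serine genes Phgdh, Psat1 and Psph, both Shmt genes, the receptors and ligands Cxcr1, Cxcr2, Cxcl1, Cxcl2 and Cxcl5, Alb, the 20 highest and 20 lowest protein-coding genes past the threshold without overlap of libraries, the 4 most changed members of each list, and the most changed genes against KO (8 each way) and WT + CXCR2i (5 each way). All other genes named, among them Atf3, Ccl2, Cdk1, Cxcl10, Dnajc3, Fosl1, Hif1a, Hspa5, Mcm5, Stat2, Irf9, Top2a and Uhrf1, and members given as exceptions to a list, were chosen after their values were seen. A few genes that the rule or the lists hold are not reported here by name. Shmt1, Adm, Cebpa, Cebpd, Ereg, Tap1 and Htra1, besides the genes given in the text, overlap a gene on the opposite strand. The gene mt-Nd2 overlaps mt-Tw on the same strand. Ribosomal protein genes, Hist1h2bg, Hspa1a and Hspa1b, and Apol9a and Apol9b have near-identical copies. The levels of all these genes are therefore uncertain. Promoters came from RefSeq (GRCm38.p6). Alternatives covered the pseudocount, filter, scaling, fit, replicate block, fold threshold, single libraries left out and, chosen after seeing the data, limma-voom on recovered fragments.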

Additional observations from a re-analysis of the deposited data

Results flagged for a closer look

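Among 210 named genes examined, 9 had 1 of the 4 KO + CXCR2i libraries standing far from the other 3, and chance alone gives this for about 1 gene in 20. The values apart, in FPKM, were high for Cyp27a1 (18.64, the other 3 at 14.95 to 15.51), Serpinf2 (10.31, others 7.954 to 8.276), Idi1 (5.257, others 4.395 to 4.504) and mt-Ta (0.665, others at 0). They were low for Nrep (0.1196, others 0.2191 to 0.2396), C4b (50.67, others 53.24 to 53.63), H2-Q4 (14.21, others 15.32 to 15.49), Gckr (8.307, others 8.543 to 8.562) and Rpl19 (507.4, others 570.3 to 573.6). All of these stay on the same side of hepatocytes alone as the other libraries of their group.

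For 15 of the 210 genes the effect of the inhibitor differed by the genotype of the cancer cells in limma's interaction test (adjusted p of at most 0.05). Over all 11395 genes tested, 93 (0.816%) passed the same threshold. Some of the 210 genes, Ifi207 and Cyp2d26 among them, were chosen by their differences from WT + CXCR2i or KO, which are parts of the same test. The count of 15 is therefore a description, and no excess over all genes can be read from it. The difference, effect beside knockout cells minus effect beside wild-type cells on the log2 scale, was positive for the immediate early genes Fos (0.894), Fosb (1.22), Btg2 (0.846), Ier3 (0.361) and Ier2 (0.543), for the cytokine Il11 (0.964) and for the YAP target Cyr61 (0.451). It was also positive for the liver genes Cyp2d26 (0.674), Cyp1a1 (0.447) and Gckr (0.362), the glutamine carrier Slc38a3 (0.527) and the stress gene Sesn2 (0.294). It was negative for the interferon-stimulated genes Ifi207 (-0.941) and Usp18 (-0.514) and for Rrm2 (-0.52). Their adjusted p ran from 0.000109 for Btg2 to 0.0491 for Sesn2. Fosb and Il11 were low in KO + CXCR2i, at 0.0386 to 0.160 FPKM and 0.509 to 1.254 FPKM, and such Fosb values rest on very few fragments. The alternative settings below were not run for the interaction test.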

How the results depend on the processing

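Counts against hepatocytes alone were 3792 higher and 4113 lower genes as reported, and stayed within 1.5 times under every alternative run except the stricter filter of 5 FPKM (2444 higher) and the 2-fold requirement (669 higher, 502 lower). Against KO the same alternatives gave 2574 higher, and 888 higher and 354 lower. Against WT + CXCR2i a pseudocount of 0.1 FPKM gave 125 higher, and the 2-fold requirement 2 higher and 0 lower. These filters test or call fewer genes by construction, and the cause of the pseudocount's effect was not tested. Scaling without mitochondrial genes and the 50 most abundant ones turned the balance against hepatocytes alone, with 4473 genes higher and 3290 lower. Of the genes called, 57.6% were then higher, against 48% as reported. The excess of lower over higher genes therefore depends on the scaling. Leaving out 1 library at a time gave 3560 to 3686 higher and 3832 to 3973 lower genes against hepatocytes alone, 3731 to 3853 and 3682 to 3844 against KO, and 92 to 164 and 26 to 57 against WT + CXCR2i. Quantile normalization turned Cd14 against hepatocytes alone (0.0409, adjusted p = 0.424), and Cish (-0.0538, adjusted p = 0.601) and Tgfb3 (-0.00878, adjusted p = 0.904) against KO, all in limma. Limma-voom on recovered fragments gave 3822 higher and 4146 lower against hepatocytes alone, 4014 and 4058 against KO, and 236 and 94 against WT + CXCR2i. The planned count model with TMM was not run. Same-numbered libraries of different groups did not deviate together (30 pairs, correlation -0.300 to 0.270). The labels do not say whether the replicate number pairs libraries, and these correlations cannot settle it. The replicate block gave 3692 and 3957 against hepatocytes alone, 3867 and 3821 against KO, and 143 and 50 against WT + CXCR2i. Of 215 named genes against hepatocytes alone, 42 fell below the threshold with the 2-fold requirement and 3 when single libraries were left out. Of 42 examined against WT + CXCR2i, 20 calls were lost when single libraries were left out. A pseudocount of 0.1 FPKM lost 23 of these 42 calls, the replicate block 13 and the absence of a filter 13. All 42 were lost with the 2-fold requirement. Medians near 0 of the lipogenesis, MAP kinase feedback, p53, NRF2, iron and urea cycle lists changed sign under some alternatives (urea cycle up to 1.38 at the stricter filter). Read on 1 strand, promoters with a match fell to 13 for the interferon element, 3 for the Atf4 element, 4 for the antioxidant element and 8 for the E2F core. Values near 1 fragment per kilobase cannot be told from 0 at this depth.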
